A study of Mus musculus with 91 samples.

Results

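The effect of an antisense oligonucleotide against Cd33 was measured in the hippocampus of APP/PS1 mice, a double transgenic model that deposits amyloid plaques (APPPS1 in the sample titles). The comparison holds 25 of the 91 arrays of the series, all hippocampus arrays of APPPS1 mice whose titles name an oligonucleotide, 12 with CD33 ASO and 13 with CON ASO, a control oligonucleotide without a target. The series further holds frontal cortex of the same cohort. Both oligonucleotides were infused at 50 µg per day for 14 days from an age of 18 weeks, and tissue was taken at 22 weeks. Hippocampus of 9 APPPS1 mice and of 12 wild-type littermates (WT PBS) whose pumps held the saline vehicle PBS entered the same fit and gives the level without an oligonucleotide. Pumps emptied at 6 µL per day through a cannula in the right lateral ventricle, the whole hippocampus of the left hemisphere was sampled, and mice lived singly after surgery. Controls of the compared group therefore carry both transgenes, the surgery and an oligonucleotide, and differ in its sequence. In this line the promoter of Thy1, a neuronal surface protein, drives the transgenes. Each array is 1 mouse.

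CD33 is a receptor of microglia and other myeloid cells that binds sialic acid on neighbouring surfaces and damps their activation, and variants of the human gene are linked to Alzheimer's disease. An antisense oligonucleotide pairs with the messenger RNA of its target and lowers it. Macrophages at the borders of the brain, in the meninges, the choroid plexus and around vessels, share many genes with microglia but express a set of their own, such as Ms4a7, Mrc1 and Cbr2, and phagocytes that take up lipid express Gpnmb and Lgals3.

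Each hippocampus array had 12951 to 13905 detected probes out of 25697, and precision is set by how many arrays there are. Probes were kept where they were detected on at least 9 of the 46 hippocampus arrays, which left 14449 probes of 10042 genes. Values are log2 signals, and a difference is CD33 ASO minus CON ASO on that scale, tested with limma and called at a Benjamini-Hochberg adjusted p under 0.05. The groups lay on the same 6 chips and 4 collection days, the latest of which held 1 CD33 ASO array. A few arrays stood apart. CD33 ASO replicate 3 had a Thy1 signal of 14.02, where WT PBS arrays averaged 14.11 and APPPS1 arrays with PBS 14.86. CD33 ASO replicates 7 and 10 had no detectable Avil, a gene detected on the other 10 arrays of their group. CON ASO replicate 13 was the lowest of its group for 7 of the 9 probes called lower whose CON ASO level was above PBS. All groups were kept as labelled, and results were repeated without these arrays. In whole tissue, fewer cells of a type and less RNA per cell cannot be told apart.

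Few genes differed between the oligonucleotides. Of 14449 probes, 17 were called (0.118%), 4 higher (0.0277%) and 13 lower (0.09%) under CD33 ASO, and they stand for 15 named genes and 1 probe without a gene name. An unadjusted p under 0.05 was reached by 618 probes (4.28%). The median difference over all probes was 0.01, and the median of its size 0.05. Differences beyond 0.5 in size were seen for 48 probes, of which 45 were lower under CD33 ASO. No probe separated the groups completely: on 0 of 14449 (0%) did all CD33 ASO arrays lie on 1 side of all CON ASO arrays.

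**Figure D1:**
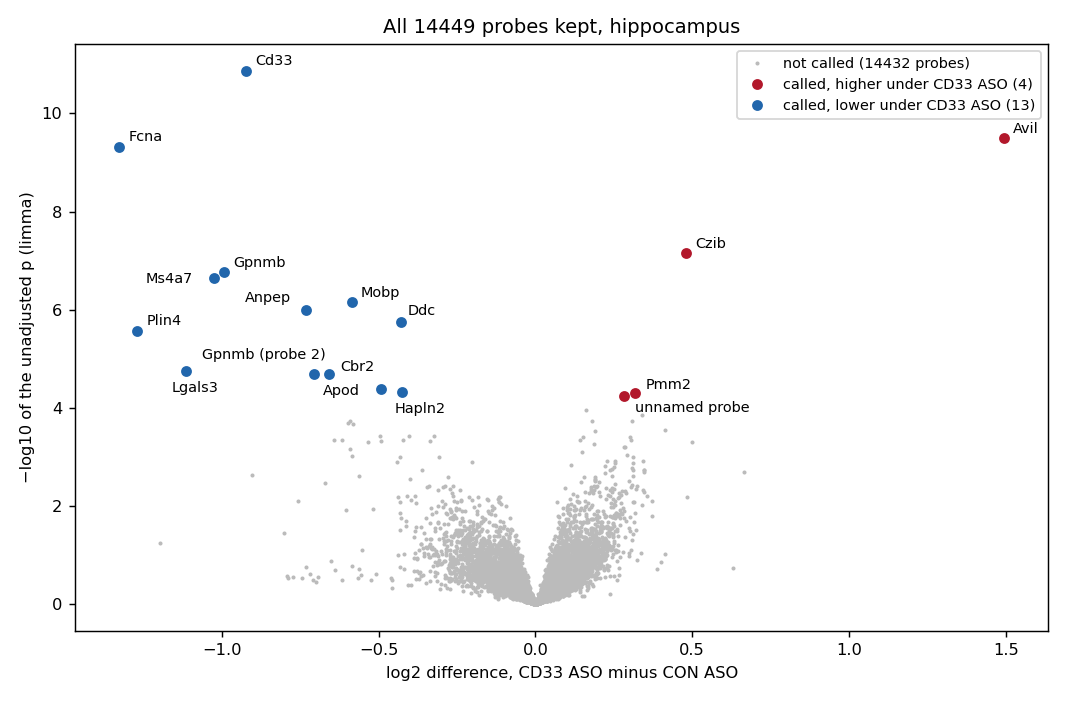
Each point is a probe, with the log2 difference of CD33 ASO minus CON ASO across and the negative log10 of limma's unadjusted p upward; the 17 called probes are coloured and named. Called probes lower under CD33 ASO (13) outnumber those higher (4), and Avil, at 1.49, is the one call beyond 0.5 on the higher side.

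The targeted gene was lower on the arrays labelled CD33 ASO. Cd33 ranged from 5.07 to 6.38 with a median of 5.51 on CD33 ASO arrays, against 6.33 to 6.89 with a median of 6.50 on CON ASO arrays. On 11 of 12 CD33 ASO arrays it lay below the lowest CON ASO array, and replicate 7 was the exception. The difference was -0.92 ± 0.11 (SE, adjusted p = 1.94e-07 in limma), a fall of 47.2% in a signal that contains an added offset. The probe was detected on 8 of 12 CD33 ASO arrays and on 13 of 13 CON ASO arrays, so part of the range lies at background. PBS arrays averaged 6.49 ± 0.23 (SD, n = 9) and WT PBS arrays 5.98 ± 0.20 (SD, n = 12), so the CD33 ASO mean of 5.60 ± 0.39 (SD, n = 12) was lower than both. The window around the start of Cd33 is shown because the oligonucleotide acts on its transcript and because Cd33 is a myeloid gene. It spans chr7:43533122-43533421 on the minus strand of GRCm38.p6, 300 bases around the start given by RefSeq, 5′ to 3′. Capitals mark GAGGAA, the purine-rich core bound by PU.1, a transcription factor of myeloid cells, searched on both strands.
Cd33: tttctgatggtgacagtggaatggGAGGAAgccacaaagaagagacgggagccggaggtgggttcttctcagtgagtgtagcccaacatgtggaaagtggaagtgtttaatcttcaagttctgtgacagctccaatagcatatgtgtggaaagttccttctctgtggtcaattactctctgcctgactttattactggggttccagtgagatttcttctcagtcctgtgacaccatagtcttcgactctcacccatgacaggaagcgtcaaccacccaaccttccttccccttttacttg
This window holds GAGGAA 1 time, and 28.3% of 27025 mouse promoters of the same length hold it at least once. A match is a description of the letters, and no binding was measured. The factor's own gene, Spi1, differed by -0.04 (unadjusted p = 0.661) and was detected on 3 of 12 CD33 ASO arrays and 3 of 13 CON ASO arrays.

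Avil moved the other way. It encodes advillin, an actin-binding protein of the gelsolin and villin family best known from sensory neurons. Its signal ranged from 4.54 to 7.27 with a median of 6.72 on CD33 ASO arrays, against 4.74 to 5.23 with a median of 4.89 on CON ASO arrays. The probe was detected on 10 of 12 CD33 ASO arrays, all of them above the highest CON ASO array, and on 0 of 13 CON ASO arrays. Replicates 7 and 10, at 4.54 and 4.83, lay within or below the CON ASO range. The difference was 1.49 ± 0.19 (SE, adjusted p = 2.27e-06), and Avil was at least 2.04-fold higher, set against the lowest detected signal of each CON ASO array or the probe's own where that was higher. The probe passed the detection filter only through the CD33 ASO group, with 1 array detected outside it. PBS arrays averaged 4.82 ± 0.33 (SD, n = 9), where CON ASO arrays averaged 4.90 ± 0.14 (SD, n = 13). Of its family, 5 members were kept and Avil was the 1 called; Gsn, Scin, Flii and Capg lay between -0.21 and 0.04.

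**Figure D2:**
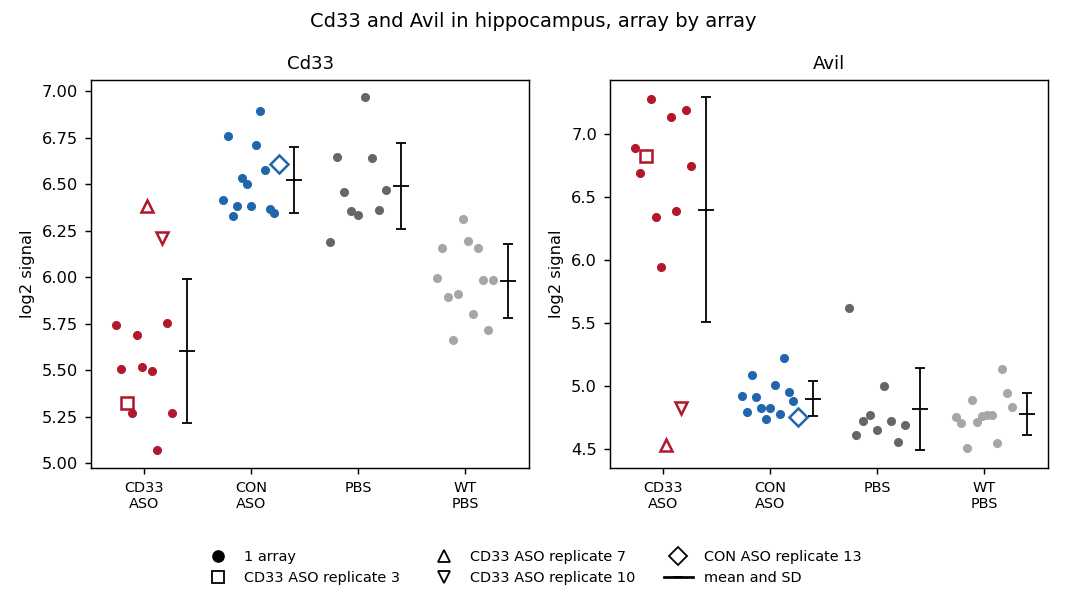
Log2 signal of Cd33 (left) and Avil (right) on every hippocampus array of the 4 groups, CD33 ASO, CON ASO, PBS and WT PBS, with mean and SD beside each group; open symbols mark CD33 ASO replicates 3, 7 and 10 and CON ASO replicate 13. Replicates 7 and 10 sit highest in Cd33 and lowest in Avil among the 12 CD33 ASO arrays.

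Called lower were 3 genes of border macrophages. Fcna, which encodes ficolin A, a lectin of the complement system made by macrophages, ranged from 4.68 to 6.44 with a median of 5.53 on CD33 ASO arrays, against 5.30 to 7.35 with a median of 6.88 on CON ASO arrays. Replicate 13 was the 5.30 of the CON ASO group, and the other 12 CON ASO arrays, from 6.62 upward, lay above every CD33 ASO array. The difference was -1.33 ± 0.17 (SE, adjusted p = 2.27e-06), a fall of 60.1% in a signal that contains an added offset. Fcna was detected on 7 of 12 CD33 ASO arrays and on 12 of 13 CON ASO arrays, so part of the range lies at background. Outside the CON ASO group Fcna was detected on 8 arrays, so it passed the filter only through that group. Ms4a7, a membrane protein of macrophages, ranged from 5.28 to 6.69 with a median of 6.25 on CD33 ASO arrays, against 6.10 to 7.89 with a median of 7.20 on CON ASO arrays. Again replicate 13 was lowest among CON ASO arrays, and without it the groups did not overlap, the other CON ASO arrays starting at 6.99. Ms4a7 changed by -1.02 ± 0.17 (SE, adjusted p = 0.000545). Cbr2, a carbonyl reductase that marks perivascular macrophages in mice, ranged from 5.13 to 6.59 with a median of 6.20 under CD33 ASO, against 6.36 to 7.48 with a median of 6.70 under CON ASO. On 9 of 12 CD33 ASO arrays it was below the CON ASO range, and it changed by -0.66 ± 0.14 (SE, adjusted p = 0.0231).

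The start windows of Fcna and Ms4a7 are shown as those of the pair of called macrophage genes with the smallest p. They span chr2:25627925-25628224 and chr19:11336097-11336396, both on the minus strand of GRCm38.p6 and from RefSeq, 5′ to 3′, with GAGGAA in capitals.
Fcna: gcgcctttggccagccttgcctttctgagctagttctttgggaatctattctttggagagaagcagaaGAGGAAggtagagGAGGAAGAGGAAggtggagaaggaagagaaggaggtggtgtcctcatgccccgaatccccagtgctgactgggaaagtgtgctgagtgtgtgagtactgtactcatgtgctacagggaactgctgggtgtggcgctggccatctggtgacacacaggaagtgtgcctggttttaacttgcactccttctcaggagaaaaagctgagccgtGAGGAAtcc
Ms4a7: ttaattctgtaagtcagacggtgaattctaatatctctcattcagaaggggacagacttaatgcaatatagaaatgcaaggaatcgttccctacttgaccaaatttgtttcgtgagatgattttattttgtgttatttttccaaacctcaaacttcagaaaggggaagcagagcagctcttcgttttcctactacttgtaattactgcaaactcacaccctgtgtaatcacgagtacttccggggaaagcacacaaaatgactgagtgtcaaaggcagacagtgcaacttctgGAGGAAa
Fcna holds the motif 4 times and Ms4a7 holds it 1 time, and the table lists 2 starts for Ms4a7, of which the first is shown. Of the 8 genes called lower that were called higher under CON ASO than PBS, 4 have GAGGAA in this window, which 28.3% of 27025 mouse promoters hold. CACGTG is in 0 of the 8, and 7.2% of all promoters hold it. The 8 were picked by their calls, so both counts describe them and test nothing.

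Of 11 kept genes known from phagocytes that store lipid, 4 were called lower and the other 7 lay between -0.11 and 0.18. By the brightest probe of each gene, 11 of all 10042 genes were called lower (0.11%). The list was chosen with earlier results of these data known, so its count describes the members and supports nothing. Gpnmb, a glycoprotein of lysosome-rich phagocytes, ranged from 9.16 to 11.14 with a median of 9.77 under CD33 ASO, against 9.54 to 11.54 with a median of 10.88 under CON ASO. The groups overlapped at replicates 1 and 11 of CD33 ASO, at 10.69 and 11.14, and at replicate 13 of CON ASO. Its brighter probe changed by -0.99 ± 0.16 (SE, adjusted p = 0.000496) and its dimmer probe by -0.71 ± 0.15 (SE, adjusted p = 0.0231). Lgals3 encodes a galectin, a secreted lectin of activated phagocytes, and ranged from 7.25 to 9.69 with a median of 8.59 under CD33 ASO, against 7.87 to 10.57 with a median of 9.84 under CON ASO. Only 2 of 12 CD33 ASO arrays, replicates 7 and 10, lay below the CON ASO range as a whole, whose lowest value was replicate 13. The change was -1.11 ± 0.23 (SE, adjusted p = 0.0228).

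Plin4, a perilipin that coats lipid droplets, had the widest range of these genes among CON ASO arrays. It ranged from 6.36 to 8.07 with a median of 7.19 under CD33 ASO, against 7.06 to 9.89 with a median of 8.60 under CON ASO, and changed by -1.27 ± 0.24 (SE, adjusted p = 0.00388). Anpep, the aminopeptidase N of myeloid cells and pericytes, ranged from 5.16 to 5.96 with a median of 5.57 under CD33 ASO, against 5.88 to 6.92 with a median of 6.32 under CON ASO. Its groups met only at the edge, with 9 of 12 CD33 ASO arrays below all CON ASO arrays and a change of -0.73 ± 0.13 (SE, adjusted p = 0.0018). Apod encodes apolipoprotein D, a lipid carrier of glia and fibroblasts. It ranged from 11.94 to 12.67 with a median of 12.37 under CD33 ASO, against 12.15 to 13.13 with a median of 13.03 under CON ASO, and changed by -0.49 ± 0.11 (SE, adjusted p = 0.0435). The CON ASO arrays were themselves spread, 8 of 13 at 12.90 or above and the others at 12.70 or below.

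**Figure D3:**
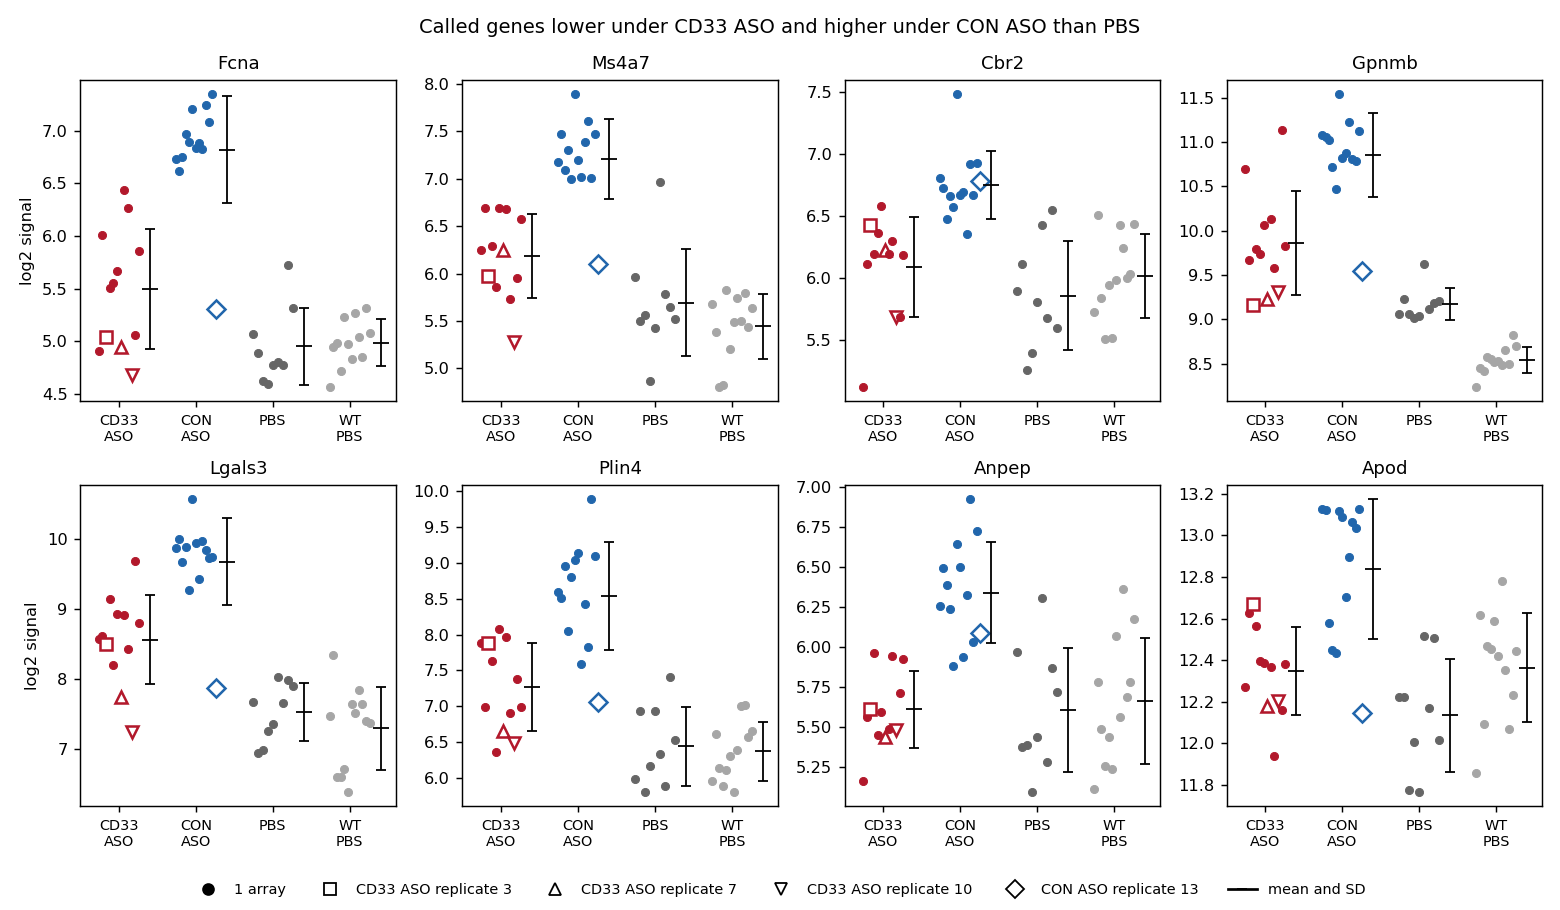
Log2 signal of 8 called genes on every hippocampus array in CD33 ASO, CON ASO, PBS and WT PBS mice, with mean and SD beside each group; the vertical axes differ between panels. The genes were picked as higher under CON ASO than under CD33 ASO and PBS. In each panel the CON ASO mean is the highest of the 4 groups. CON ASO replicate 13 (diamond) lies lowest of its group in Fcna, Ms4a7, Gpnmb, Lgals3, Plin4 and Apod.

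For these 8 genes the mice without an oligonucleotide stood nearer to CD33 ASO than to CON ASO. Against PBS, CON ASO was higher by 1.87 for Fcna, 1.52 for Ms4a7, 0.89 for Cbr2, 1.68 for Gpnmb, 2.14 for Lgals3, 2.10 for Plin4, 0.74 for Anpep and 0.70 for Apod. Each of these was called, as the choice of the 8 genes required, in a comparison with 187 calls (1.29% of probes). The 8 were picked as called lower than CON ASO and with CON ASO called above PBS. A CON ASO level far from both other groups therefore follows in part from the choice. CD33 ASO against PBS gave 0.54, 0.49, 0.23, 0.69, 1.03, 0.83, 0.01 and 0.21 for the same genes in the same order. Among those, Lgals3 was called (adjusted p = 0.048), in a comparison with 73 calls (0.505%), and Gpnmb had an adjusted p of 0.0565. The comparisons share the CON ASO or the PBS arrays, so they are not independent of each other. Averaged over the 9 probes, array means were 6.82 to 7.75 under CD33 ASO, against 7.33 to 8.90 under CON ASO, 6.60 to 7.38 under PBS and 6.51 to 7.14 in WT PBS mice. Since the 9 probes were picked by their calls, those ranges describe them and test nothing.

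For Mobp, Hapln2 and Ddc, CON ASO was not called against PBS. Mobp encodes a structural protein of myelin, and its called probe ranged from 8.60 to 9.95 with a median of 9.33 under CD33 ASO, against 9.51 to 10.16 with a median of 9.94 under CON ASO. On 9 of 12 CD33 ASO arrays it was below the CON ASO range, while replicates 7 and 10, at 9.93 and 9.95, lay in its middle. The change was -0.59 ± 0.10 (SE, adjusted p = 0.00146). Other probes of Mobp gave -0.34 (adjusted p = 0.183) and -0.16 (adjusted p = 0.99), so the probes differ in size but not in sign. PBS arrays averaged 9.82 ± 0.21 (SD, n = 9) on the called probe, and CD33 ASO differed from PBS by -0.49 (adjusted p = 0.0288) and CON ASO by 0.09 (adjusted p = 0.788).

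Hapln2, a link protein of the matrix around nodes of myelinated axons, was highest in replicates 7 and 10 among CD33 ASO mice. It ranged from 7.61 to 8.77 with a median of 7.77 under CD33 ASO, against 7.73 to 8.56 with a median of 8.41 under CON ASO. Replicates 7 and 10 gave the upper values of 8.52 and 8.77, the next being 8.10, and replicate 13 gave the lowest of CON ASO. Hapln2 changed by -0.42 ± 0.10 (SE, adjusted p = 0.0446). Ddc, the decarboxylase that makes dopamine and serotonin from their precursors, ranged from 6.82 to 7.73 with a median of 7.32 under CD33 ASO, against 7.46 to 8.05 with a median of 7.70 under CON ASO. It was below the CON ASO range on 8 of 12 CD33 ASO arrays and changed by -0.43 ± 0.08 (SE, adjusted p = 0.00286). CON ASO differed from PBS by 0.22 for Hapln2 (adjusted p = 0.336) and by 0.14 for Ddc (adjusted p = 0.499).

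Besides Avil, 3 probes were called higher. Czib, which encodes a zinc-binding protein, ranged from 8.44 to 9.05 with a median of 8.70 under CD33 ASO, against 7.96 to 8.47 with a median of 8.23 under CON ASO. The highest CON ASO array was replicate 13, and 10 of 12 CD33 ASO arrays lay above it. Czib changed by 0.48 ± 0.08 (SE, adjusted p = 0.000253), with a second probe at 0.19 (adjusted p = 0.196). PBS arrays averaged 8.73 ± 0.20 (SD, n = 9), and CON ASO was lower than PBS by -0.52 (adjusted p = 7.81e-05). Pmm2, a phosphomannomutase of N-glycan assembly, ranged from 6.48 to 7.01 with a median of 6.87 under CD33 ASO, against 6.29 to 6.80 with a median of 6.54 under CON ASO. That probe changed by 0.32 ± 0.07 (SE, adjusted p = 0.0446), and the other kept probes of Pmm2 gave 0.004 and 0.12 (adjusted p = 0.998 and 0.99). By the brightest probe of each gene, 0 of 11 kept genes of mannose activation and N-glycan assembly were called, with a median of 0.004. The remaining probe, ILMN_1213030, has no gene name here and changed by 0.28 ± 0.06 (SE, adjusted p = 0.0483).

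**Figure D4:**
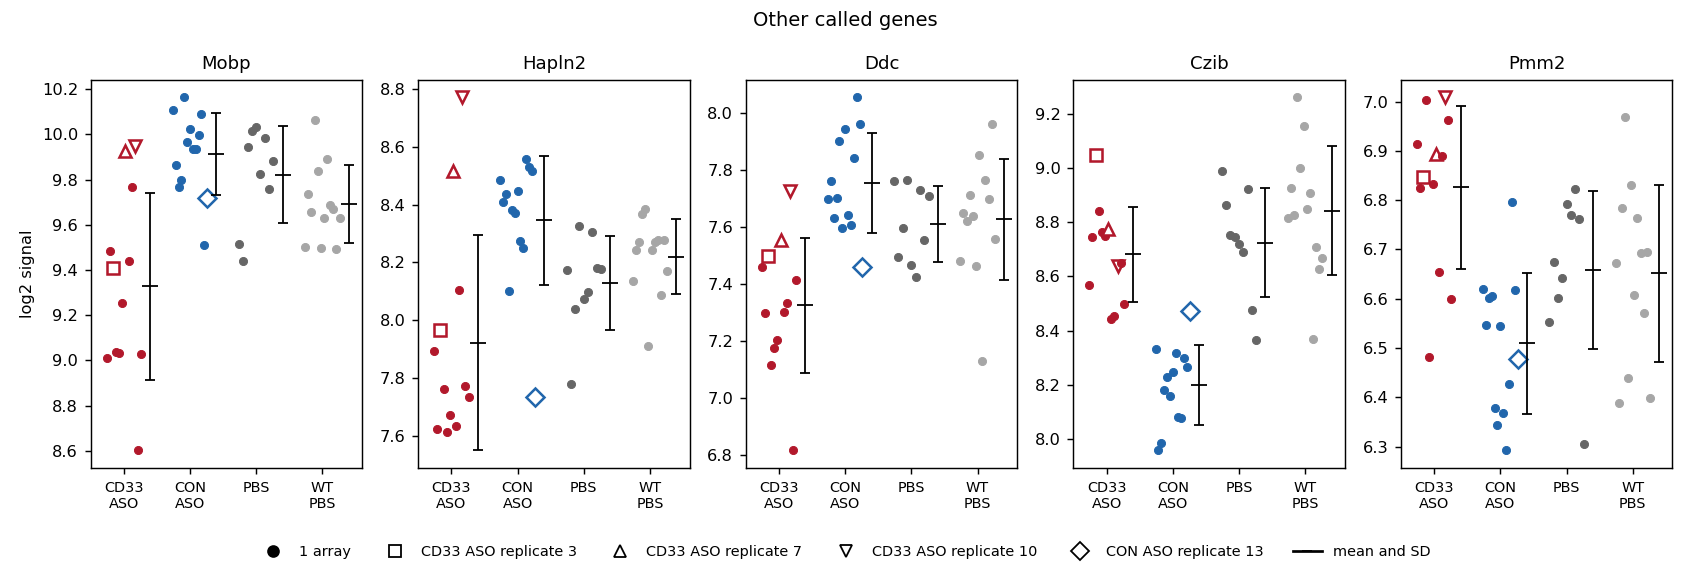
Log2 signal of Mobp (called probe), Hapln2, Ddc, Czib and Pmm2 (called probe) on every hippocampus array of CD33 ASO, CON ASO, PBS and WT PBS mice, with mean and SD beside each group. Replicates 7 and 10 of CD33 ASO (triangles) lie among the CON ASO arrays in Mobp and among or above the highest of them in Hapln2.

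Direction within chips and days is given as a description, since the 17 probes were picked by their calls over these same arrays, which favours a kept sign. All 17 probes but that of Apod kept their sign on 6 of 6 chips, and Apod on 5 of 6. The 2 Gpnmb probes kept it on 3 of 4 collection days and the others on 4 of 4. The exception for Gpnmb was 0.13 for the brighter probe and 0.23 for the dimmer, on the day with 1 CD33 ASO array. Cd33 lay between -1.21 and -0.72 by chip and between -1.09 and -0.71 by day. The groups were spread unevenly over days, and with collection day as a block 5 of the 17 calls were lost: Lgals3, the dimmer Gpnmb probe, Apod, Hapln2 and Pmm2. With chip as a block Apod was lost.

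The mice that stood apart can be set against the PBS range on the 9 probes called lower with CON ASO above PBS, a set picked by its calls. CD33 ASO replicates 7 and 10 lay within the PBS range on 9 of 9 of them, and the other 10 CD33 ASO arrays on 4 to 7. CON ASO replicate 13 lay within the PBS range on 8 of 9, and the other 12 CON ASO arrays on 0 to 2. Replicate 13 had an ordinary Cd33 of 6.61 and no detectable Avil, like its group. Leaving out replicates 7 and 10 rests on their Avil signal, so Cd33 and Avil without them are given as a description: -1.06 ± 0.09 (SE) for Cd33 and 1.84 for Avil.

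Repeats without these mice kept the sign of all 17 probes, which their choice over the same arrays favours. Without CD33 ASO replicate 3, 15 probes were called, all among the 17, and Hapln2 and Pmm2 dropped out (adjusted p = 0.0574 and 0.0727). Without replicates 7 and 10, 15 were called, 11 of them among the 17, and without all 3 arrays 16 were called, again 11 among the 17. Without 7 and 10, Fcna was at -1.19 and the brighter Gpnmb probe at -0.87, both called, and 6 of the 17 probes lost their call. These were Lgals3 (-0.90, adjusted p = 0.145), the dimmer Gpnmb probe (-0.59, adjusted p = 0.167), Cbr2 (-0.63, adjusted p = 0.0783), Apod (-0.46, adjusted p = 0.154), Pmm2 (0.29, adjusted p = 0.176) and ILMN_1213030 (0.23, adjusted p = 0.295). In the same repeat Mobp was at -0.71 and Hapln2 -0.57 (adjusted p = 3.62e-06 for each), and a second Mobp probe passed at -0.45 (adjusted p = 0.0023). The 16 kept oligodendrocyte and myelin genes had a median of -0.10 over all arrays and -0.18 in that repeat. For all 10042 genes the medians were 0.002 and 0.0008. Below 0 were 11 of the 16 over all arrays and 12 in that repeat, where all genes gave 4921 and 4972. Replicates 7 and 10 had the highest Hapln2 of their group, so the shift in that repeat describes the list and tests nothing. New calls there were Mal, a myelin lipid raft protein, at -0.39 (adjusted p = 0.0441), Nrbp2, a kinase-like protein, at -0.39 (adjusted p = 0.00616), and Gdpd3, a phosphodiesterase of lipids, at 0.51 (adjusted p = 0.0156). Without all 3 arrays Tph2, which makes the precursor of serotonin in neurons, was called too, at 0.49 (adjusted p = 0.0179), against 0.34 over all arrays (adjusted p = 0.423). When CON ASO replicate 13 was left out together with 7 and 10, a choice made after seeing the data, 17 probes were called, 14 of them among the first 17.

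Gene lists place these calls beside their cell types. The lists were read with the brightest probe of each gene, and over all 10042 genes 12 were called (0.119%), 1 higher (0.00996%) and 11 lower (0.11%), with a median difference of 0.002. Of 14 genes of border and perivascular macrophages, 6 were kept. Called lower were 3 of these 6, Fcna, Ms4a7 and Cbr2, and the list had a median of -0.59. The mannose receptor Mrc1 was at -0.53 (adjusted p = 0.183) and the folate receptor Folr2 at -0.42 (adjusted p = 0.183), and Stab1 was at -0.16. Fcna and Folr2 passed the detection filter only through the CON ASO group, so the list's count and median describe the kept members and support nothing. Markers probed but not kept were Cd163, Pf4, F13a1, Cd209b and Siglec1. Summed over the 6 genes, linear signals were 242 to 488 under CD33 ASO, against 476 to 889 under CON ASO and 174 to 510 under PBS. For lipid-laden phagocytes, with Gpnmb, Lgals3, Plin4 and Anpep called, the list's median was -0.09. Lpl, a lipase of triglycerides, stood highest at 0.18 (unadjusted p = 0.00493), and Plin2, the common lipid droplet coat, was at -0.04. Plin4 and Anpep are not particular to this list. Plin4 was also the 1 called of 11 kept glucocorticoid targets, a list with a median of -0.05. Anpep was also the 1 called of 12 kept genes of pericytes and smooth muscle, with a median of -0.07 and 11 below 0.

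Few microglial genes besides Cd33 were called. Of 15 kept pan-microglial genes 0 were called, 14 were below 0 and the median was -0.07; Laptm5, a lysosomal membrane protein, was lowest at -0.26 (unadjusted p = 0.00388). Without CD33 ASO replicates 3, 7 and 10 that median was 0.05, with 5 of 15 below 0. Homeostatic microglial genes (14 kept) had a median of -0.02 and 0 calls. Of 24 kept genes of plaque-associated microglia, 2 were called lower, Gpnmb and Lgals3, and the median was -0.04. Their medians without the 3 arrays were 0.04 and 0.07. Among 8 kept genes of the CD33 family and its signalling, Cd33 was the 1 called. Trem2, an activating receptor of microglia, was at -0.07, its adaptor Tyrobp at -0.07, and the phosphatase Ptpn6 at -0.02. On the complement list, which does not hold Fcna, 0 of 8 kept genes were called, C2 standing lowest at -0.67 (unadjusted p = 0.00341). Of interferon response genes 0 of 12 were called, with a median of -0.05.

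Markers of blood, meninges and choroid plexus were listed to show what else the samples could hold; none was called, their medians lay below 0, and their part in the results above was not tested. For red blood cells 0 of 4 kept genes were called. Differences with an unadjusted p under 0.05 were seen for these 4, where 1.98% of all genes were lower at that mark, but Slc4a1 passed the detection filter only through the CON ASO group (13 arrays in all, 6 without it), so the count supports nothing. Alas2, the haem synthesis enzyme of red cell precursors, was at -0.90, Hbb-bt at -0.76, Hba-a1 at -0.52 and Slc4a1 at -0.40. Their median was -0.64, and the summed signal was 3677 to 24980 under CD33 ASO, against 9644 to 29197 under CON ASO. For meninges and fibroblasts 0 of 15 were called, all 15 were below 0 and the median was -0.22. An unadjusted limma p under 0.05 was reached by 4 of the 15, all lower, against 1.98% of all genes. Slc6a13 was at -0.60, Lum at -0.56 and Ptgds at -0.38, and the sum was 9193 to 30880 under CD33 ASO, against 13582 to 37783 under CON ASO. For choroid plexus and ependyma 0 of 13 were called, 11 were below 0, 0 had an unadjusted p under 0.05 and the median was -0.52. Their sum overlapped widely, 4497 to 40163 under CD33 ASO, against 7372 to 39387 under CON ASO. Kl was at -0.64 (unadjusted p = 0.205) and Clic6 at -0.72 (unadjusted p = 0.238). Like the 8 genes above, these lists lay higher under CON ASO than PBS, though with 0 calls. Their medians in that comparison were 0.47 for red blood cells, 0.53 for meninges and fibroblasts and 1.16 for choroid plexus and ependyma. CD33 ASO against PBS gave -0.19, 0.22 and 0.64 in the same order.

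Oligodendrocyte and myelin genes were split. Of 16 kept, 2 were called lower, Hapln2 and Apod, 11 were below 0 and the median was -0.10. At an unadjusted p under 0.05, 5 were lower and 2 higher, where 2.6% of all genes were higher. Those 2, named after their values were seen, were Klk6, a protease of oligodendrocytes, at 0.67 (unadjusted p = 0.00207), and Ugt8a, an enzyme of myelin galactolipid synthesis, at 0.30 (unadjusted p = 0.00039). By its brightest probe Mobp was at -0.34 (adjusted p = 0.183), and Mbp was at 0.03 and Mag at 0.09. The summed signal was 43731 to 62763 under CD33 ASO, against 46981 to 63180 under CON ASO. Astrocyte (median 0.08) and neuron (median -0.02) lists had 0 calls.

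**Figure D5:**
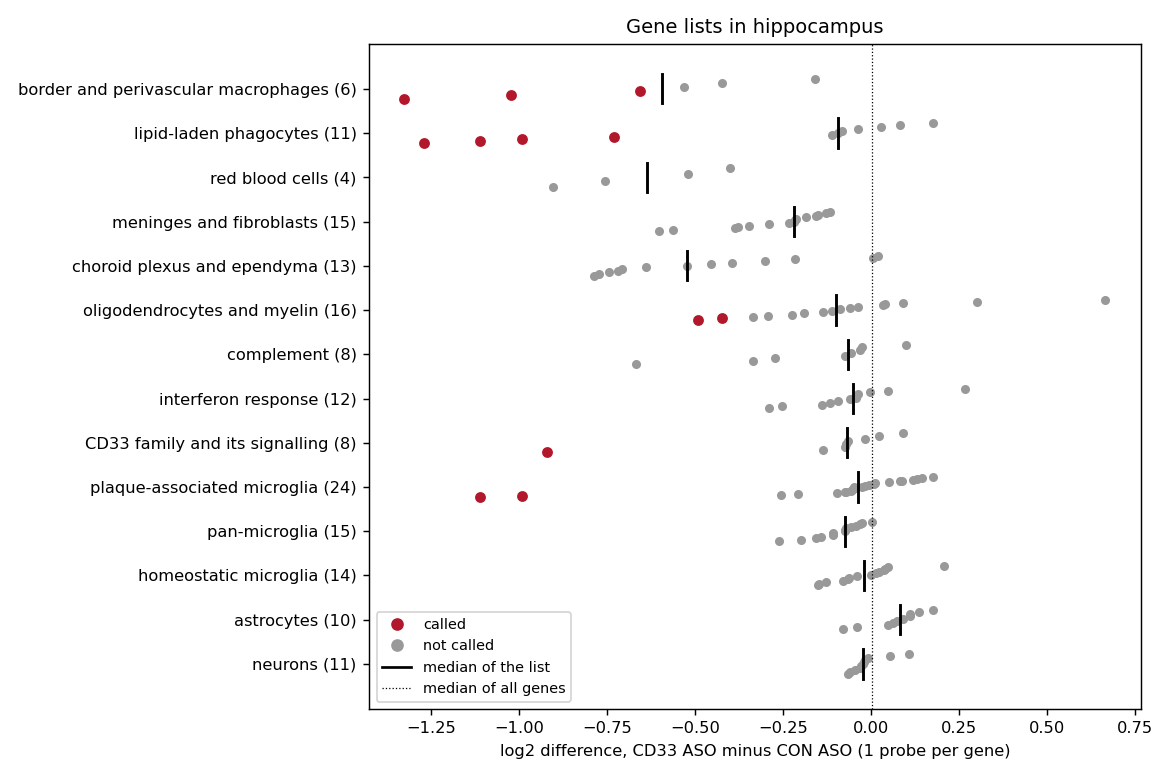
Log2 difference of CD33 ASO minus CON ASO for each kept gene (1 probe per gene) of 14 gene lists, with the number kept in brackets, called genes in red and a bar at the list's median. The macrophage list reaches -1.33, and the microglial lists lie close to the median of all genes except for Cd33, Gpnmb and Lgals3.

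Within a group, 10 relations between 5 pairs of these genes were computed, with Benjamini-Hochberg adjustment over the 10. Gpnmb and Lgals3 rose and fell together in CD33 ASO mice (Pearson r = 0.71, permutation p = 0.0111, adjusted 0.0372, Spearman rho = 0.73, permutation p = 0.00873, n = 12). Without the 2 arrays farthest from the median of Gpnmb r was 0.70 (permutation p = 0.0221, adjusted 0.116), and with day means removed it was 0.68. In CON ASO mice the same pair had r = 0.94 (permutation p = 0.00031, adjusted 0.0031, rho = 0.65, permutation p = 0.0198, n = 13), and 0.57 without replicates 6 and 13 (permutation p = 0.0683). Fcna and Ms4a7 had r = 0.83 in CON ASO mice (permutation p = 0.00481, adjusted 0.024, rho = 0.47, permutation p = 0.111), and the relation did not hold without replicates 12 and 13, at r = 0.45 (permutation p = 0.167). Under CD33 ASO that pair had r = 0.52 (permutation p = 0.0852, rho = 0.46, permutation p = 0.133).

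Cd33 and Fcna ran against each other among CD33 ASO mice, with r = -0.67 (permutation p = 0.0155, adjusted 0.0388, rho = -0.66, permutation p = 0.0241), and r = -0.49 without replicates 7 and 10 (permutation p = 0.151). Cd33 was detected on 8 of these 12 arrays and Fcna on 7, so much of this relation rests on values at background. In CON ASO mice that pair had r = -0.26 (permutation p = 0.396, rho = -0.37, permutation p = 0.208). With day means removed its r was -0.63 under CD33 ASO and -0.62 under CON ASO. Cd33 and Gpnmb had r = -0.07 under CD33 ASO (permutation p = 0.829, rho = 0.04, permutation p = 0.904), which became 0.70 without replicates 7 and 10 (permutation p = 0.0231, adjusted 0.116). The same pair had r = -0.01 under CON ASO (permutation p = 0.967, rho = 0.05, permutation p = 0.864). Gpnmb and Plin4 had r = 0.42 under CD33 ASO (permutation p = 0.178, rho = 0.54, permutation p = 0.0744) and 0.55 under CON ASO (permutation p = 0.0558, rho = 0.29, permutation p = 0.344). Without the 2 arrays farthest from the median of Gpnmb, r was 0.43 under CD33 ASO and 0.002 under CON ASO. With day means removed it was 0.61 and 0.84. None of the 10 relations had an adjusted p under 0.05 after the 2 most distant arrays were left out.

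Frontal cortex of the same cohort gives the nearest comparison, with 22 of 14346 probes called there (0.153%). Whether the effect of CD33 ASO differed between the tissues was tested with limma as an interaction, and 0 of 14884 probes were called (0%), against 1365 at an unadjusted p under 0.05. With the mice measured in both tissues alone, 0 were called as well. The smallest p among the hippocampal calls belonged to Pmm2, 0.32 in hippocampus and -0.06 in cortex (interaction 0.37, unadjusted p = 2.01e-05, adjusted p = 0.224), and to Anpep, -0.73 and -0.07 (interaction -0.65, unadjusted p = 0.000159, adjusted p = 0.314). Cortical differences were -0.87 for Fcna, -0.85 for Gpnmb, -0.39 for Ms4a7, -0.27 for Mobp and 0.17 for Czib. In cortex Fcna and Gpnmb were called (adjusted p = 0.00105 and 0.0171), and the other 3 were not.

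Just outside the threshold stood genes of both kinds. On the lower side were Lyz1, a lysozyme of macrophages, at -0.59 ± 0.14 (SE, adjusted p = 0.124), Ms4a6d, a relative of Ms4a7, at -0.58 (adjusted p = 0.129), Bmp7, a growth factor of the meninges and choroid plexus, at -0.60 (adjusted p = 0.128), and Cp, the copper protein ceruloplasmin, at -0.50 (adjusted p = 0.182). Each of these 4 was called higher under CON ASO than PBS, by 1.04, 1.06, 0.59 and 0.55 in that order. By the brightest probe of each gene, 98 of 10042 genes were called higher in that comparison. Both comparisons share the CON ASO arrays, so picking genes low against CON ASO favours a CON ASO level above PBS. On the higher side Hibadh, a mitochondrial dehydrogenase of valine breakdown, was at 0.16 (adjusted p = 0.0881), Pdlim2 at 0.34 (adjusted p = 0.108), Igdcc4 at 0.18 (adjusted p = 0.124), the iron exporter Slc40a1 at 0.31 (adjusted p = 0.124) and Dctn4, a subunit of dynactin, at 0.19 (adjusted p = 0.168).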

How the data were processed

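Biotin-labelled RNA from each tissue was read on Illumina bead arrays, per the labels' protocols. The deposited table gives an intensity and a detection p-value for each probe and array, per the file headers. Of the hippocampal intensities, 25.25% lay below 0, which shows that some background was taken off earlier, by a method not stated. BeadStudio, GenomeStudio and Partek appear in the submitters' processing notes. The submitters' deposited value table, on a log2-like scale of unstated offset, was used as an alternative.

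From these, log2 values were computed with neqc of limma 3.58.1 (R 4.3.3), which models background from the detection p-value, adds an offset of 16 and makes the arrays' distributions equal. Probes were kept at a detection p under 0.05 on at least 9 of 46 arrays. Array annotation gave 16814 probes 1 gene symbol, 0 several and 8883 none, and 808 kept probes stayed unnamed. A model with 1 mean for each of 4 groups was fitted with limma (empirical Bayes, trend and robust), two-sided, and was tested on simulated data. Interactions with cortex used all 91 arrays with mouse as random effect (correlation 0.169, statmod 1.5.0). Permutation tests were two-sided with 100000 resamples.

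Named genes are Cd33, Thy1, all called genes, those called in a repeat, the 10 next probes and the 3 members of smallest p of each list, of which not all are printed. All kept members of the macrophage and red blood cell lists, and some members of others (Spi1, Trem2, Tyrobp, Ptpn6, Plin2, Klk6, Mbp and the advillin family), were named after their values were seen. Groups came from the titles, which hold 9 and 12 PBS mice where the treatment text has 8 and 11. The members and gene lists were chosen with earlier results of these data known.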

Additional observations from a re-analysis of the deposited data

Results flagged for a closer look

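Of the 18 probes examined for single arrays that lie far from their group, in the PBS group of 9 mice, 2 had such an array, and chance alone gives about 1 in 20. PBS replicate 1 had Avil at 5.62, where the other 8 lay between 4.56 and 5.00; this is the 1 PBS array on which Avil was detected. PBS replicate 6 had Gpnmb at 9.62, where the other 8 lay between 9.02 and 9.23. Groups of over 10 arrays were not examined in this way.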

How the results depend on the processing

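Over 17 other settings besides single arrays left out, the 17 called probes kept their direction wherever they were measured. The settings share arrays with the fit that picked these probes, which favours this. The count of called probes was 11 with a stricter filter on dim probes and 11 with the 25 compared arrays alone, where 8 of the 17 were lost: both Gpnmb probes (the brighter at adjusted p = 0.0844), Plin4 (adjusted p = 0.0861), Lgals3, Apod, Hapln2, Pmm2 and the unnamed probe. It was 14 to 23 with no background correction, median centring, the submitters' value table, no filter, weighted arrays, a block for chip or for collection day, and no moderation by trend. With 1 probe per gene it was 12. Leaving out each array in turn gave 10 to 17, with 10 without CON ASO replicate 6 and 11 without CD33 ASO replicate 10. Replicate numbers were not taken to pair mice: same-numbered CD33 ASO and CON ASO arrays, 11 of 12 of which shared a chip, correlated at -0.20 to 0.49 in their deviations from group means, 10 of 12 above 0.1 and 6 best with their own number. With the replicate number as a block 25 probes were called, 6 higher and 19 lower, 16 of them among the 17, and Cd33 changed by -0.91. Cd33 was called throughout, from -1.06 to -0.65 across settings and from -0.99 to -0.87 with single arrays left out. The called probes of Avil, Fcna, Czib, Ms4a7, Mobp, Anpep and Ddc were likewise called in every setting that measured those probes. The stricter filter on dim probes left out Avil, Fcna and Anpep. With 1 probe per gene, Mobp and Czib were read by their brighter probes. In the main limma fit those were not called (adjusted p = 0.183 for Mobp and 0.196 for Czib). For Avil and Cd33 the settings without CD33 ASO replicates 7 and 10 do not count, since those arrays were picked by their Avil signal. The Cd33 value of -1.06 belongs to such a setting. Apod, Hapln2, Pmm2 and the unnamed probe were lost in 6, 5, 10 and 10 settings, Lgals3 and Cbr2 in 4 each, and the dimmer Gpnmb probe in 5; the cause was not tested. Of 25 fits that each left out 1 array, Hapln2 kept its call in 5, Pmm2 in 6, Apod in 8, the unnamed probe in 9, the dimmer Gpnmb probe in 16, Cbr2 in 21 and Lgals3 in 22, and the other 10 probes in 25. Thy1, not called at -0.07, turned to 0.00747 without CD33 ASO replicates 3, 7 and 10 and to 0.00613 when CON ASO replicate 13 was left out as well, a choice made after seeing the data; replicate 3 was picked by its Thy1 level, so this turn follows from the choice. The interaction with cortex gave 0 calls in all 5 fits. The number of arrays and the dimness of Cd33, Avil and Fcna, near background in 1 group or more, limit how well their sizes are known.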
